A study of Mus musculus with 2 samples.

Results

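The inflammatory CC chemokine ligands are small secreted proteins that draw leukocytes towards inflamed tissue. The 10 genes described here, Ccl2, Ccl3, Ccl4, Ccl5, Ccl6, Ccl7, Ccl9, Ccl17, Ccl22 and Ccl24, were chosen by symbol, and all 10 were found among the 24346 symbols of the deposited tables. RNA was sequenced from Gr-1+ CD11b+ cells, a myeloid population, of BALB/c mice given 3% dextran sulfate sodium (DSS), which causes colitis, over 6 days. One library holds RNA of cells stimulated with ATPγS at 100 µM for 2.5 hours (n = 1), and the other from cells stimulated without ATPγS (control, n = 1). ATPγS is a slowly hydrolysed analogue of ATP that acts on nucleotide receptors. The cells of both libraries came from DSS-treated BALB/c mice, so no library from healthy mice enters the comparison. The labels do not give the number, age or pooling of the mice.

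CC ligands act through G protein-coupled receptors of the CCR family, and most ligands bind more than 1 receptor. Ccl3 and Ccl4, also called macrophage inflammatory proteins alpha and beta, attract macrophages and lymphocytes, and Ccl3 acts through CCR1 among others. Ccl2 and Ccl7 are monocyte chemoattractants that act through CCR2, Ccl6 and Ccl9 are rodent ligands of CCR1, Ccl17 and Ccl22 are ligands of CCR4, and Ccl24 is an eosinophil attractant that acts through CCR3. Activated myeloid cells make many of these ligands within hours of stimulation. In bulk RNA, fewer cells that express a gene and less of its RNA per cell cannot be told apart.

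Of the 10 ligands, Ccl4 differed most in FPKM between the libraries. It stood at 3818 FPKM in the ATPγS library, against 1818 FPKM in the control library, where FPKM are fragments counted relative to transcript length and library size. Ccl4 ranked 10 of all 24346 genes in the ATPγS library and 40 in the control library. Ccl3 stood at 2418 FPKM in the ATPγS library, against 1833 FPKM in the control library. Both were higher with ATPγS, with Ccl4 2.10-fold and Ccl3 1.32-fold higher. Counting intervals (95%, exact binomial on estimated reads, covering counting error only) were 2.01 to 2.198 for the ratio of Ccl4 and 1.26 to 1.38 for that of Ccl3. With 1 library per condition there is no replicate error, so every difference below describes these libraries and no p-value was computed. Every count of genes past 2-fold in the text is on the log2(FPKM + 1) scale, on which low genes differ less than in FPKM.

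The pair did not differ by the same factor. The ratio of the Ccl4 level to the Ccl3 level was 1.58 in the ATPγS library and 0.992 in the control library, a 1.59-fold difference with a counting interval of 1.49 to 1.70. In control cells both genes were listed at nearly the same level, and in ATPγS cells Ccl4 stood above Ccl3. Of the 61 genes whose mean FPKM reached 1000, 4 (6.56%) were higher with ATPγS by 2-fold or more and 7 (11.5%) lower by as much. Ccl4 was among the 4 higher ones, and the other 3, named after their values were seen, were the short RNA genes Snora65, Mir669a-3 and Mir6389.

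**Figure D1:**
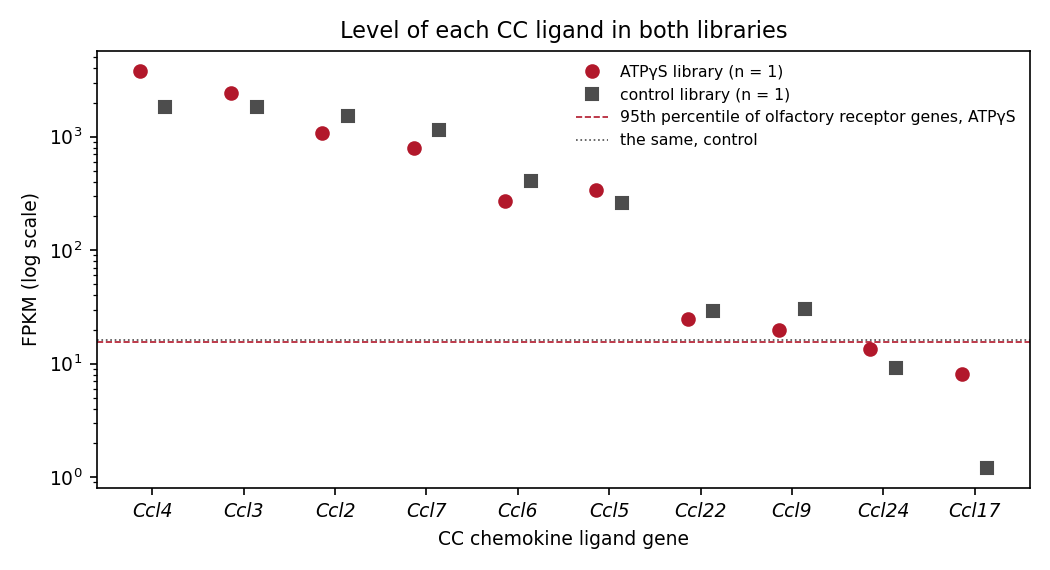
Level of each CC ligand in FPKM (vertical axis, log scale) in the ATPγS library (circles) and the control library (squares), 1 library each, ordered by mean level. Ccl4 stands at 3818 FPKM with ATPγS and 1818 FPKM in the control, while Ccl24 and Ccl17 lie under the dashed and dotted lines, the 95th percentile of olfactory and vomeronasal receptor genes in each library (15.7 FPKM with ATPγS and 16.2 FPKM in the control).

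Ccl5, which attracts T cells, monocytes and eosinophils through several receptors, stood at 342 FPKM in the ATPγS library, against 258 FPKM in the control library. Its ratio of 1.32 (counting interval 1.15 to 1.53) was close to that of Ccl3, and the level of Ccl3 over that of Ccl5 was 7.07 with ATPγS and 7.10 without. T and NK cells also transcribe Ccl5. Markers of those lymphocytes numbered 8, of which 6 were lower with ATPγS by 2-fold or more (9.91% of all genes were) and 0 were higher by as much (13.8% of all genes were). By direction 7 were lower and 1 was higher, the granzyme gene Gzma, at 66.1 FPKM with ATPγS and 45.8 FPKM without. Of the 18311 genes whose mean FPKM reached 1, 9075 were lower. Some of the 8 lay under the 95th percentile of the olfactory and vomeronasal receptor genes in both libraries, and others with ATPγS alone. None of the 8 was listed at 0, and their summed level was 145 FPKM with ATPγS and 295 FPKM without. The part of T and NK cells in the Ccl5 level was not tested.

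The monocyte chemoattractants were lower with ATPγS. Ccl2 stood at 1074 FPKM in the ATPγS library and at 1517 FPKM in the control library, a ratio of 0.708 (counting interval 0.670 to 0.748). Ccl7 stood at 801 FPKM in the ATPγS library and at 1149.7 FPKM in the control library, a ratio of 0.697 (0.653 to 0.743). These neighbouring genes kept nearly the same proportion to each other, with the Ccl2 level 1.34 times that of Ccl7 in the ATPγS library and 1.32 times in the control library. The difference in that proportion, 1.02-fold, had a counting interval of 0.934 to 1.11, which includes no difference. Monocyte markers had a summed level of 260 FPKM with ATPγS and 284 FPKM without, and none of the 7 was listed at 0. On the log2(FPKM + 1) scale 0 of the 7 reached a 2-fold difference. Of all genes, 13.8% were higher by as much and 9.91% lower. By direction 6 of the 7 were lower with ATPγS, with a median log2 ratio of -0.18. Of the 18311 genes whose mean FPKM reached 1, 9075 were lower. Some of the 7 lay in both libraries under the olfactory receptor gene percentile given above, 15.7 FPKM with ATPγS and 16.2 FPKM without. The counting intervals of some monocyte markers include no difference, while those of others do not. The part of monocytes in the levels of Ccl2 and Ccl7 was not tested.

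The rodent CCR1 ligands were lower with ATPγS as well. Ccl6 stood at 274 FPKM in the ATPγS library and 407 FPKM in the control library, a ratio of 0.672 (counting interval 0.619 to 0.729). The less abundant Ccl9 stood at 19.8 FPKM in the ATPγS library and 30.3 FPKM in the control library, a ratio of 0.653 (0.528 to 0.806). As with Ccl2 and Ccl7, the proportion within the pair was similar in both libraries, at 13.8 with ATPγS and 13.4 without, a difference of 1.03-fold (0.825 to 1.28). Neutrophil markers, the most abundant of all marker lists, summed to 42419 FPKM with ATPγS and 39404 FPKM without over the 7 of 8 that matched a row. Most of that sum was S100a8 (22410 FPKM with ATPγS and 20604 FPKM without) and S100a9 (14942 FPKM with ATPγS and 13776 FPKM without). By direction 4 of the 7 were higher with ATPγS (50.4% of all genes were) and 3 were lower, and none was listed at 0. Past 2-fold were 0 of the 7 (13.8% of all genes were higher by as much and 9.91% lower). Ly6g, a defining neutrophil marker and part of the Gr-1 antigen, matched no row and was not analysed here.

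The ligands of CCR4 and CCR3 were, with Ccl9, the least abundant members. For scale, 1304 olfactory and vomeronasal receptor genes, expressed mainly in sensory neurons of the nose, had a median of 2.26 FPKM in the ATPγS library and 1.99 FPKM in the control library. Their 95th percentile was 15.7 FPKM with ATPγS and 16.2 FPKM without. Ccl22 stood at 24.8 FPKM in the ATPγS library and 29.2 FPKM in the control library, above that percentile in both, and its ratio of 0.847 had a counting interval of 0.669 to 1.07, which includes no difference. Ccl24 stood at 13.4 FPKM with ATPγS and 9.09 FPKM without, under the percentile in both libraries, with a ratio of 1.47 (0.889 to 2.48).

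Ccl17 had the highest ratio of the 10 ligands and the least data behind it. It stood at 8.14 FPKM in the ATPγS library and at 1.21 FPKM in the control library, under the 95th percentile of the receptor genes in both and, in the control, under their median. These values correspond to about 12 reads with ATPγS and 1 read without, so the interval of its ratio ran from 1.33 to 384. Of the 919 receptor genes whose mean FPKM reached 1, 46.6% differed at least 2-fold in either direction. Dendritic cells, a known source of Ccl17 and Ccl22, have markers that summed to 233 FPKM with ATPγS and 218 FPKM without. Most of that sum was Ccr7, at 181 FPKM with ATPγS and 167 FPKM without. The other dendritic cell markers lay under the 95th percentile of the receptor genes in both libraries. Of the 8, 1 was at least 2-fold higher (13.8% of all genes were) and 1 at least 2-fold lower (9.91% of all genes were). Both of them stood under 5 FPKM in each library, and none of the 8 was listed at 0. Eosinophil markers, given because Ccl24 attracts these cells, summed to 44.1 FPKM with ATPγS and 45.8 FPKM without over 6 genes. Of the 5 eosinophil markers whose mean FPKM reached 1, 1 was at least 2-fold higher (13.8% of all genes were). Another 1 was at least 2-fold lower (9.91% of all genes were), and none was listed at 0. Neither the part of dendritic cells in the Ccl17 and Ccl22 levels nor a link of eosinophils to Ccl24 was tested.

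**Figure D2:**
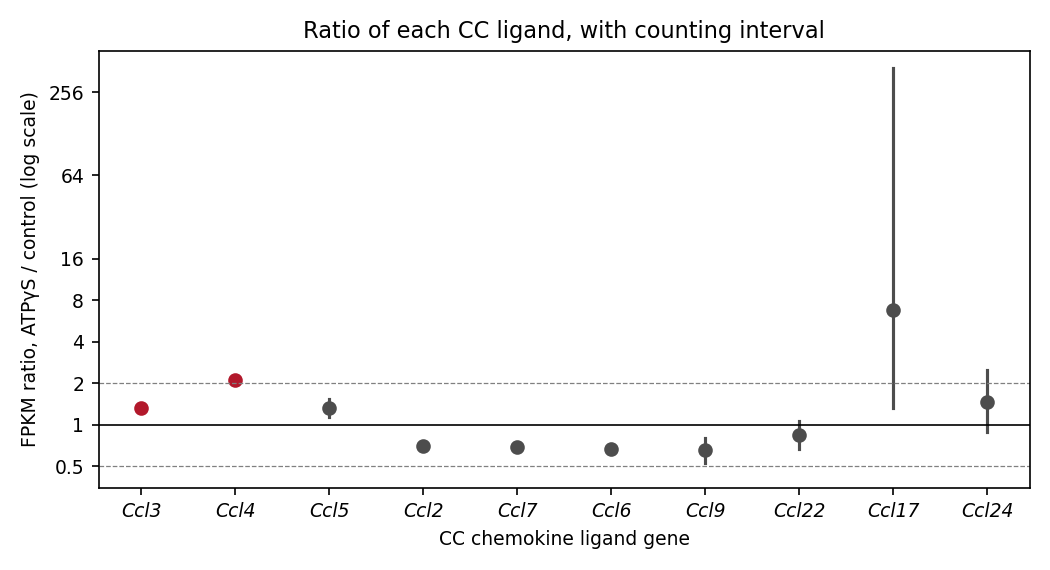
Ratio of the FPKM in the ATPγS library to that in the control library for each CC ligand (log axis), with the 95% exact binomial counting interval as a vertical line. Ccl3 and Ccl4 (red) lie at 1.32 and 2.10, Ccl2, Ccl7, Ccl6 and Ccl9 lie between 0.653 and 0.708, and the interval of Ccl17 reaches 384.

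Ccl3 and Ccl4 were then set against the other 8 ligands. The mean log2 ratio of Ccl3 and Ccl4 was 0.74, and the median of the other 8 was -0.36, a difference of 1.10 on the log2(FPKM + 1) scale. Of the other 8, 5 were below 0 and 3, Ccl5, Ccl17 and Ccl24, were above. The ratios overlapped between both groups of ligands, since 5 of the other 8 lay below Ccl3 and the remaining 3 lay above or level with it. Without Ccl17, whose mean FPKM is under 5, the difference was 1.23. With the mean of the other ligands in place of the median it was 0.67, because the single value of Ccl17 (2.05) raises that mean.

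Together, Ccl3 and Ccl4 summed to 6236.5 FPKM in the ATPγS library and 3650.3 FPKM in the control library. The other 8 ligands summed to 2557 FPKM with ATPγS and 3402 FPKM without. As a result Ccl3 and Ccl4 held 70.9% of the summed level of the 10 ligands in the ATPγS library and 51.8% in the control library. Ccl4 alone held 43.4% with ATPγS and 25.8% without, whereas the share of Ccl3 was 27.5% with ATPγS and 26.0% without. Ccl2 and Ccl7 together held 21.3% with ATPγS and 37.8% without. The sum of all 10 ligands was 8793 FPKM in the ATPγS library and 7052.5 FPKM in the control library, a ratio of 1.25. Macrophage markers, of another cell type that makes Ccl3 and Ccl4, summed to 1081 FPKM with ATPγS and 841 FPKM without. Most of that sum was Apoe, at 716 FPKM with ATPγS and 611 FPKM without. Of 7 such markers, 7 had a log2 ratio above 0 (50.4% of all genes did). Past 2-fold higher was 1 of them (13.8% of all genes were), and none was listed at 0. That marker lay under the 95th percentile of the olfactory and vomeronasal receptor genes in the control, and some others did in both libraries. The counting intervals of some macrophage markers include no difference. The part of macrophages in the levels of Ccl3 and Ccl4 was not tested. Basophil and mast cell markers summed to 35.7 FPKM with ATPγS and 42.9 FPKM without over 6 genes. All 6 lay under the 95th percentile of the olfactory and vomeronasal receptor genes in both libraries. Though that sum was lower with ATPγS, 4 of the 6 were higher (50.4% of all genes were). At least 2-fold lower were 2 of them (9.91% of all genes were), and 0 were higher by as much (13.8% of all genes were). B cell markers summed to 253 FPKM with ATPγS and 331 FPKM without over 6 genes. No gene of either list was listed at 0.

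**Figure D3:**
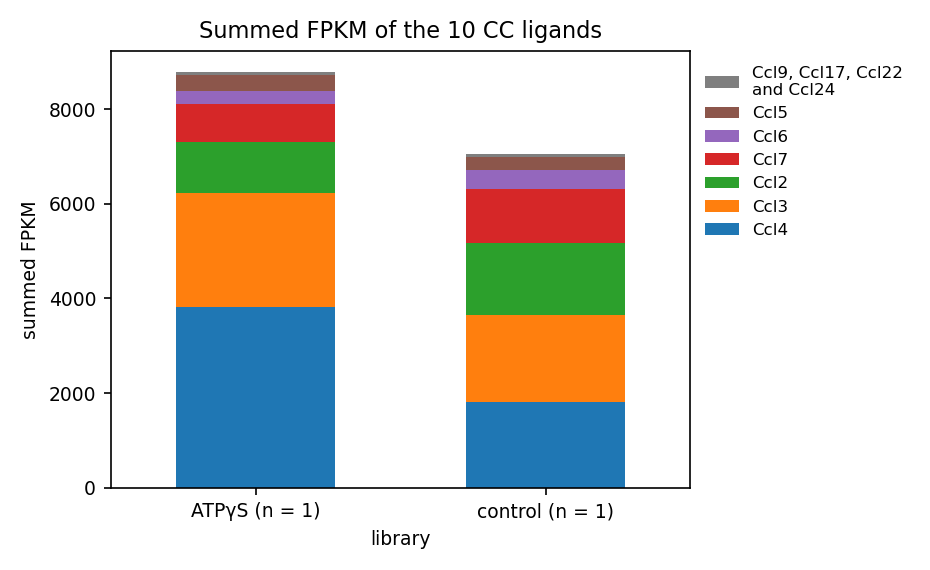
Summed FPKM of the 10 CC ligands (vertical axis) in the ATPγS library (left bar) and the control library (right bar), split by gene. The Ccl4 segment is 3818 FPKM with ATPγS and 1818 FPKM in the control, and the whole bars reach 8793 and 7052.5 FPKM.

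Read against all genes, 2 of the 10 ligands, Ccl4 and Ccl17, were higher with ATPγS by 2-fold or more, as were 13.8% of the 18311 genes whose mean FPKM reached 1. No ligand was at least 2-fold lower, where 9.91% of those genes were. All 10 passed that minimum, with a median log2 ratio of 0.08 beside 0.01 for all genes. This background changes with the level of the genes. Of the 833 genes whose mean FPKM reached 100, 2.76% were at least 2-fold higher, and Ccl4 was the only 1 of the 6 ligands at that level to be so. A difference of 1.2-fold, a threshold chosen after seeing the data, was passed upwards by 3 of these 6 ligands (Ccl3, Ccl4 and Ccl5), beside 16.3% of all genes at that level. It was passed downwards by the other 3 (Ccl2, Ccl6 and Ccl7), beside 29.2% of all genes.

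**Figure D4:**
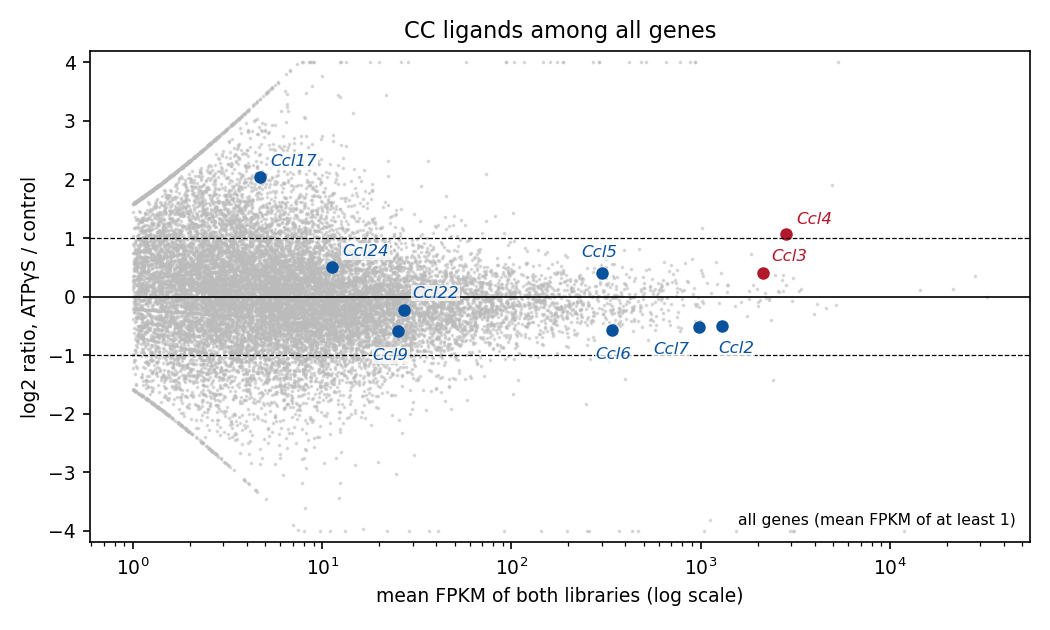
Log2 ratio of ATPγS to control on the log2(FPKM + 1) scale against the mean FPKM of both libraries (log axis) for the 18311 genes whose mean FPKM reached 1 (grey), with Ccl3 and Ccl4 in red and the other 8 ligands in blue. Dashed lines mark 2-fold, 58 genes beyond 4 are drawn at the edge, and Ccl4 (1.07) lies above most genes of its level while Ccl17 (2.05) lies where the grey points spread widely.

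The pairs Ccl2 and Ccl7, and Ccl6 and Ccl9, are each made of neighbours in the genome. On chromosome 11 (GRCm38, GENCODE M21), Ccl2 (82035571 to 82037453, plus strand) and Ccl7 (82045712 to 82047525, plus strand) are 8258 bases apart. Further along lie Ccl5 (83525778 to 83530518), Ccl9 (83572919 to 83578636), Ccl6 (83587882 to 83593087) and Ccl3 (83647844 to 83649355), all on the minus strand, and Ccl4 (83662584 to 83664683) on the plus strand. Ccl9 and Ccl6 are 9245 bases apart, and Ccl3 and Ccl4, transcribed away from each other, are 13228 bases apart. Ccl22 (94745590 to 94751699) and Ccl17 (94810453 to 94812036) lie on chromosome 8 and Ccl24 (135569937 to 135573049) on chromosome 5. Among the neighbouring pairs with levels well above the receptor genes, Ccl2 and Ccl7 differed by the same factor within counting error, while Ccl3 and Ccl4 did not. A like factor was not limited to neighbours, since Ccl3 and Ccl5, 117325 bases apart with Ccl9 and Ccl6 between them, also differed by the same factor within counting error (0.996-fold, interval 0.858 to 1.16). Antisense to Ccl6 the annotation has E230016K23Rik, at 11.3 FPKM with ATPγS and 10.7 FPKM without, and antisense to Ccl2 it has Gm17268, and reads of such partners cannot be told apart in a preparation that does not mark strand.

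The promoters of Ccl3, the first member of the divergent pair, and of Ccl6 and Ccl9, which were lower together, are shown for the 250 bases before the start site in RefSeq (build GRCm38.p6, minus strand, 5′ to 3′). Capitals mark a match to the C/EBP motif in Ccl3 and, in Ccl6 and Ccl9, the best local alignment between both promoters.
Ccl3, chr11:83649379-83649628: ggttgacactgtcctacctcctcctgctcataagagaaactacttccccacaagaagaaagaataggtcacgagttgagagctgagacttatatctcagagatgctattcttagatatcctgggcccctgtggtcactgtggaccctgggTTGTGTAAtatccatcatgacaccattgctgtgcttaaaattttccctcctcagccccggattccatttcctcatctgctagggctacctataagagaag
Ccl6, chr11:83593088-83593337: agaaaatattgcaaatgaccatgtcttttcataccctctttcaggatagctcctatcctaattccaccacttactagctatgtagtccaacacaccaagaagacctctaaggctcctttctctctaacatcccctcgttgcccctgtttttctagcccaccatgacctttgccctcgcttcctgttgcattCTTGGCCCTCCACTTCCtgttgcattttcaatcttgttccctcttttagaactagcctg
Ccl9, chr11:83578637-83578886: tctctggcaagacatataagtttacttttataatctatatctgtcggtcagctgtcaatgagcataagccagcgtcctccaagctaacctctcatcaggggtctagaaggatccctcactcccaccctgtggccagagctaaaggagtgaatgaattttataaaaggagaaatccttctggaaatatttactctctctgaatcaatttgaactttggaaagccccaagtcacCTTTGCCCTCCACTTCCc
The aligned stretch of Ccl6 and Ccl9 was 17 bases long with 16 identities, and their longest shared run was 13 bases, against at most 10 bases in the other 9 pairs among the 5 ligands with an entry (Ccl3, Ccl6, Ccl9, Ccl17 and Ccl22).

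Motifs were searched in the same 250 bases of these 5 ligands and of all 32851 promoters in the table, on both strands except for the TATA box. The C/EBP motif TTNNGNAA was found in Ccl3 and Ccl9 and in 36.8% of all promoters, and in Ccl3 it spans bases -100 to -93 from the start site. The AP-1 motif TGANTCA was found in Ccl9 alone (6.7% of all promoters), as were the NF-κB consensus (7.3%) and the TATA box TATAAA (7.6%). The cAMP response element TGACGTCA was found in 0 of the 5 and in 1.5% of all promoters. A match describes these letters and is not a binding site.

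Other CC ligands were mostly low. Of 14 such genes, the mean FPKM of 8 reached 1, of which 2, Ccl21a and Ccl25, were higher with ATPγS by 2-fold or more (13.8% of all genes were) and 1, Ccl1, lower by as much (9.91% of all genes were). The most abundant, Ccl8, a further monocyte chemoattractant, stood at 134 FPKM with ATPγS and 139 FPKM without, and the eosinophil attractant Ccl11 at 98.1 FPKM with ATPγS and 99.4 FPKM without. Both lie in the same cluster as Ccl2 and Ccl7 and yet hardly differed. Ccl21a, a lymphoid chemokine of stromal cells, stood at 51.8 FPKM with ATPγS and 0.0950 FPKM without, while its near-identical copies Ccl21b and Ccl21c were listed at 0 in both libraries. How reads were shared among the copies is not known, and the sum over the 3 copies is the Ccl21a value in each library. Ccl25, an attractant of gut lymphocytes, stood at 5.30 FPKM with ATPγS and 0.429 FPKM without, under the 95th percentile of the receptor genes of the nose in both. These Ccl25 values correspond to about 17 reads with ATPγS and 1 read without, and the interval of its ratio ran from 1.995 to 532. Ccl1, a ligand of CCR8, was lower at 3.73 FPKM with ATPγS and 8.72 FPKM without, within the range of the receptor genes of the nose. Its values correspond to about 6 reads with ATPγS and 11 without. The interval of the Ccl1 ratio ran from 0.124 to 1.21, which includes no difference.

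Among the receptors of these ligands, Ccr1, which binds Ccl3, Ccl5, Ccl6, Ccl7 and Ccl9, was the most abundant signalling receptor analysed. It stood at 182 FPKM in the ATPγS library, against 129 FPKM in the control library, a ratio of 1.41 (counting interval 1.29 to 1.54). The atypical receptor gene Ccrl2, which does not signal as the others do, was far higher, at 1456 FPKM with ATPγS and 1096 FPKM without, a ratio of 1.33 (1.29 to 1.37). Ccr3, the receptor of Ccl24, stood at 30.4 FPKM with ATPγS and 41.5 FPKM without. Ccr2, the receptor of Ccl2, stood at 8.82 FPKM with ATPγS and 14.7 FPKM without. The high Ccl2 level stood beside a Ccr2 level under the 95th percentile of the olfactory receptor genes. Of the 8 chemokine receptor genes analysed whose mean FPKM reached 1, 2 were higher with ATPγS by 2-fold or more (13.8% of all genes were) and 0 lower by as much (9.91% of all genes were), with a median log2 ratio of 0.45 beside 0.01 for all genes. The 2 higher ones were Ccr8 (19.3 FPKM with ATPγS and 4.23 FPKM without) and the scavenging receptor gene Ackr1 (13.5 FPKM with ATPγS and listed at 0 without). Ackr1 lay under the 95th percentile of the olfactory receptor genes in both libraries, and Ccr8 in the control. Estimated reads were 64 with ATPγS and 11 without for Ccr8, and 44 and 0 for Ackr1. Of the olfactory and vomeronasal receptor genes whose mean FPKM reached 1, 46.6% differed at least 2-fold in either direction. Ccr4, the receptor of Ccl17 and Ccl22, stood at 7.05 FPKM with ATPγS and 3.52 FPKM without, a ratio of 2.01 in FPKM that is under 2-fold on the log2(FPKM + 1) scale.

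**Figure D5:**
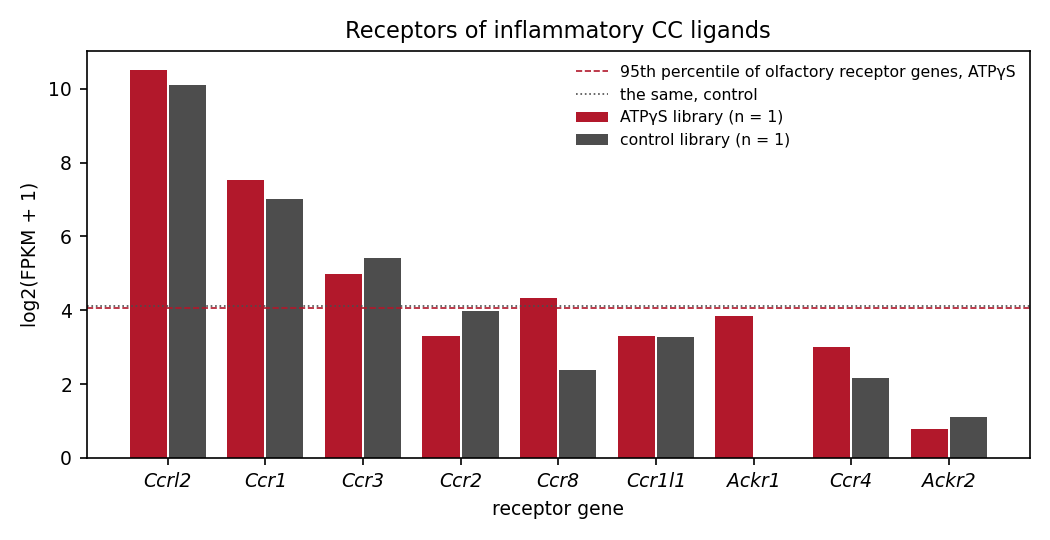
Level of the receptor genes of inflammatory CC ligands as log2(FPKM + 1) in the ATPγS library (red, left of each pair) and the control library (grey, right), 1 library each, with lines at the 95th percentile of the olfactory and vomeronasal receptor genes. Ccrl2, Ccr1 and Ccr3 stand above the lines in both libraries, Ccr8 in the ATPγS library alone, and Ackr1 is listed at 0 in the control.

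Rapidly induced inflammatory genes gave a frame for the Ccl3 and Ccl4 ratios. Of 12 such genes, 11 had a log2 ratio above 0 (50.4% of all 18311 genes did), and the median was 0.32. None reached 2-fold in either direction, where 13.8% of all genes were higher by as much and 9.91% lower. Of the 833 genes whose mean FPKM reached 100, as that of these 12 did, 2.76% were higher by as much and 2.76% lower. The prostaglandin synthase gene Ptgs2 had the highest ratio of the list, 1.70 (194 FPKM with ATPγS and 114 FPKM without), and Cxcl2, a neutrophil attractant, followed at 1.51 (1452 FPKM with ATPγS and 959 FPKM without). The cytokine gene Il1b, the most abundant, stood at 3429 FPKM with ATPγS and 3218 FPKM without, and Nfkbia, an inhibitor of NF-κB, at 2795 FPKM with ATPγS and 2168 FPKM without. Ccl3, at a log2 ratio of 0.40, lay within the range of this list (-0.16 for Cxcl1 to 0.76 for Ptgs2), and Ccl4, at 1.07, lay above all 12.

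Among 18 transcription factor genes of inflammatory and myeloid genes, 0 were at least 2-fold higher (13.8% of all genes were), with a median of -0.17. Lower by as much was 1 of them, Maf (9.91% of all genes were), at 1.26 FPKM with ATPγS and 4.12 FPKM without. Both Maf values lay under the 95th percentile of the olfactory and vomeronasal receptor genes (15.7 FPKM with ATPγS and 16.2 FPKM without). Atf3, a stress-induced factor, stood at 306 FPKM with ATPγS and 166 FPKM without, and Cebpb, of the C/EBP family, at 804 FPKM with ATPγS and 617 FPKM without. Irf3, of interferon induction, was lower at 15.8 FPKM with ATPγS and 24.5 FPKM without. Of 8 genes of proteins that bind or degrade inflammatory mRNA, 0 reached 2-fold and the median was -0.22. The most abundant, Zfp36, a protein that promotes the decay of AU-rich transcripts, stood at 655 FPKM with ATPγS and 603 FPKM without, and its relative Zfp36l1 at 30.9 FPKM with ATPγS and 50.1 FPKM without.

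By level in both libraries, the genes most like Ccl3 were Tyrobp, Lilrb4a, Irg1, S100a11 and Nfkbia, with distances of 0.226 to 0.320 in log2(FPKM + 1) over the 2 libraries. Ccl4 had no gene that near. Its closest were Il1rn, Nfkbia, Actg1, Cd14 and Ctsd, at distances of 0.502 to 0.628, and Ccl3 came next at 0.659. Il1rn stood at 3047 FPKM with ATPγS and 2369 FPKM without, so that the gene most like Ccl4 had a log2 ratio of 0.36 beside 1.07 for Ccl4.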

How the data were processed

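Per the labels' protocols, a SMART-Seq HT kit gave full-length cDNA and a Nextera kit the libraries, a preparation that does not mark strand. Per the submitters' processing notes, Cufflinks 2.2.1, TopHat2 2.0.13, SAMtools 0.1.19 and Bowtie2 2.2.3 were used with build mm10, and the authors deposited FPKM, 1 value per gene symbol. Their annotation and tool options are not stated (not given in the sources used here). The members and gene lists were chosen with earlier results of these data known.

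Python 3.11.15 was used with pandas 2.3.3 and scipy 1.17.1. Log2 ratios were log2((ATPγS FPKM + 1) / (control FPKM + 1)), so differences of low genes are understated, and printed folds are FPKM ratios without the pseudocount. Counts used genes whose mean FPKM reached 1. Depth was read from steps in the product of FPKM and coding length over 1304 receptor genes of the olfactory and vomeronasal families, which gave 2848000 fragments in the ATPγS library and 2133000 in the control. Of values under 10 reads, 70.5% with ATPγS and 70.9% in the control came out whole within 0.05 reads. Reads per gene were estimated with GENCODE M21 transcript lengths (95.7% of symbols matched) and are approximate. Intervals are 95% exact binomial for a ratio and a normal approximation on the log scale for a ratio of ratios, and cover counting error only, since duplicates cannot be told from molecules. The depth estimate and the calling of 2-fold differences were tested on simulated data, while the intervals and shares were not. The simulation used the coding lengths that the depth estimate assumes, so it cannot test that assumption. With 1 library per group no test between conditions was run. Named genes were all members, for each list up to 6 genes of largest absolute log2 ratio at a mean FPKM of at least 5 and the 2 most abundant, and the 5 genes nearest to Ccl3 and Ccl4. Other genes named (Ccl21b, Ccl21c, Ccl25, Cxcl1 and Maf) complete a count or comparison and were chosen after their values were seen. Some list genes are not reported here.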

Additional observations from a re-analysis of the deposited data

How the results depend on the processing

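The count of ligands at least 2-fold higher with ATPγS was 2 under other pseudocounts (0.1 and 5), rescaling (equal sums, or a median log2 ratio of 0), no filter and a 1.5-fold threshold. It was 1 at 3-fold, where Ccl17 is left, and 1 at a mean FPKM of at least 5 or, chosen after seeing the data, of at least 20, where Ccl4 is left. The count at least 2-fold lower was 0, and 1 (Ccl9) at 1.5-fold. The difference of Ccl3 and Ccl4 from the other ligands, 1.10, became 1.23 and 1.24 at a mean FPKM of at least 5 and 20, by the construction of those minimums, which leave out Ccl17 and then Ccl24, and 0.67 with the mean of the others. It lay between 1.08 and 1.10 under the pseudocounts and rescalings. The share of Ccl3 and Ccl4 was 68.5% with ATPγS and 49.9% without over all CC ligand genes, and 66.3% with ATPγS and 46.1% without in estimated reads. Rescaling to a median of 0 shifted log2 ratios by 0.13, and none of the 40 ratios of single ligands under alternatives changed sign. No paired analysis was possible because each condition has 1 library. With about 12 reads and 1 read, depth limits Ccl17 most.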
